A study of Mus musculus with 24 samples.

Results

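The 10 genes described here encode the interleukin 6 and interleukin 12 cytokine families of the mouse, and they were taken by symbol from the 23420 gene symbols that each count table lists. They comprise the ligands Il6, Lif and Osm, the receptor chains Il6ra and Il6st, and the subunits of the interleukin 12 group of heterodimers, Il12a, Il12b, Il23a, Il27 and Ebi3. The study asked how the loss of the TET dioxygenases, which oxidise 5-methylcytosine, or of the DNA glycosylase TDG, which excises the later oxidation products, affects gene expression in T helper 2 (Th2) cells and in bone marrow-derived macrophages (BMDMs). Polyadenylated RNA was sequenced from 24 libraries in 10 groups.

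All mice were C57BL/6 and 8 to 16 weeks old, and both Cre-carrying and control mice were injected with tamoxifen. In TDG iKO mice the floxed Tdg gene, and in TET iTKO mice the floxed Tet1, Tet2 and Tet3 genes, were deleted by a CreERT2 whose expression was not limited to macrophages or T cells. The transgene sits at the Ndor1 locus, and the lines also carry Rosa26 reporters that Cre switches on. The 16 BMDM libraries form 2 cohorts, each with its own wild type (WT). The Tdg cohort holds WT and TDG iKO cells, and the Tet cohort holds WT and TET iTKO cells. Each genotype was measured without stimulation (0 h) and after 6 h with 10 ng/ml Kdo2-lipid A (KLA), the part of lipopolysaccharide that Toll-like receptor 4 recognises, with 2 libraries per group. The 8 Th2 libraries, 4 WT and 4 TDG iKO, came from naive CD4+ T cells of spleen and lymph nodes. By the study's methods these were activated through CD3 and CD28 with 1000 U/ml IL-4 and anti-IFN-gamma, and then expanded in IL-2. Replicates 3 and 4 of each Th2 genotype differed by little more than sampling noise and were summed into 1 sample, so the Th2 comparison had 3 samples per genotype.

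Interleukin 6 binds its receptor chain, encoded by Il6ra, and signals through gp130, the shared chain encoded by Il6st, which also serves leukemia inhibitory factor (Lif) and oncostatin M (Osm). The interleukin 12 group is built from pairs of subunits. Il12a (p35) or Il23a (p19) pairs with Il12b (p40) to form interleukin 12 or interleukin 23, and Il27 (p28) or Il12a pairs with Ebi3 to form interleukin 27 or interleukin 35. In macrophages Toll-like receptor signals induce several of these genes through NF-kappa B, C/EBP and AP-1 factors, and the receptors signal through JAK kinases and STAT factors, which induce the feedback inhibitor Socs3.

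The assigned count per library ran from 4982950 to 26657729. A floor of 3 counts, below which a gene could not be told from absence, corresponded to between 0.113 and 0.602 CPM (a count scaled to a common total of assigned counts per library). The summed level of 6 macrophage markers was 6890 to 11331 CPM in BMDMs and 9.88 to 60.2 in Th2 cells, where Csf1r and Mertk were at 0. The summed level of 6 T cell markers was 1532 to 2411 in Th2 cells and 7.68 to 27.9 in BMDMs. Counts were made for whole genes, so the loss of single exons in the knockouts is not tested here. The study's methods report the deletion of the floxed exons from qRT-PCR on Th2 cells. Tdg had 0 to 3 counts in the WT and 0 in the TDG iKO BMDM libraries, 2, 1 and 5 counts in TDG iKO and 7, 2 and 10 in WT Th2 samples, and so did not check the labels. In the Tet cohort Tet1 had at most 17 counts, and Tet2 and Tet3 were not lower in TET iTKO cells (log2 0.37 and 0.12 at 0 h, DESeq2 adjusted p = 0.0894 and 0.731). In bulk RNA, fewer cells of a type and less RNA per cell cannot be told apart. Nothing in the labels ties the libraries of a group to separate animals, so the p-values measure the spread between these libraries, which may be technical.

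The promoters of Il6, Ebi3 and Il12b are printed because Il6 and Ebi3 differed between genotypes at 0 h and Il12b and Il6 at 6 h. Each is the 250 bases before the RefSeq start, taken from the RefSeq table (build GRCm38.p6) and placed in mm9 by an exact match on the + strand. Capitals mark the matches to the motifs searched on both strands.
Il6 (chr5:30339404-30339653): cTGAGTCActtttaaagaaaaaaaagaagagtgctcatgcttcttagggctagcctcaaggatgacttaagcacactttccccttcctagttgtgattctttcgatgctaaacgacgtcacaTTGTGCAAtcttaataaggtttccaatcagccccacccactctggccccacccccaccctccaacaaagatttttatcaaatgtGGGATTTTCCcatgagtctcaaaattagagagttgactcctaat
Ebi3 (chr17:56091796-56092045): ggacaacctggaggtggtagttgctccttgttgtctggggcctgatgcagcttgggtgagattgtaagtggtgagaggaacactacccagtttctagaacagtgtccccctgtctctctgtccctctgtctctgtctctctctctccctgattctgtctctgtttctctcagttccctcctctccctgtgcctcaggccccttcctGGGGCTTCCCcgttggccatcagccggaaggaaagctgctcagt
Il12b (chr11:44213315-44213564): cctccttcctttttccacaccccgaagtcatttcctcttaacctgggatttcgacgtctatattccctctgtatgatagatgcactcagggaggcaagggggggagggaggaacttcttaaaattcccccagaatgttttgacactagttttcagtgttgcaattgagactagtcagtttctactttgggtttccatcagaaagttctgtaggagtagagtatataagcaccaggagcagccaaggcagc

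The kappa B motif, searched as GGGNN followed by TTTCC or by TTCCC, was matched by GGGATTTTCC in Il6 and by GGGGCTTCCC in Ebi3, both at -44 to -35 from the start. Of 32851 mouse promoters of the same length, 2.82% hold either form. The Il6 window also held a C/EBP match (TTGCNNAA, on the - strand, in 9.56% of promoters) at -128 to -121 and an AP-1 match (TGANTCA, in 6.75%) at -249 to -243. The Il12b window held no match to these, to the interferon response element TTTC, NN, TTTC (2.98% of promoters) or to TATAAA (12.4%). These matches are letters in a window and describe no binding. Other forms of the motifs were not searched, so a window without a match is not shown to lack such elements. The table held 7 of the 10 genes, and Osm, Il23a and Il27 were not among them.

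In mm9, Il6 lies on the + strand of chr5:30339701-30346508, Ebi3 on the + strand of chr17:56092046-56096444 and Il12b on the + strand of chr11:44213565-44227535. Lif (chr11:4157560-4172517) and Osm (chr11:4136423-4141029) are neighbours on the + strand, 16530 bases apart. Il12a lies at chr3:68494566-68502469 (+), Il6ra at chr3:89673246-89717084 (-), Il6st at chr13:113265216-113297068 (+) and Il23a at chr10:127733196-127735140 (-). The exons of Il27 (chr7:133732524-133738455, -) overlap those of Apobr on the opposite strand, and exons of Ebi3 overlap the long noncoding RNA Gm16712 on the opposite strand. The strand setting of the counting is not given in the sources used here. The counts of Il27 and Ebi3 are therefore uncertain where their exons overlap those partners, and pairs may be lost there or added.

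KLA raised Il6, Il12b and Il27 in all 4 comparisons of 6 h with 0 h, which were made within each genotype of each cohort. Values below are normalised counts, that is, counts divided by the DESeq2 size factor of the library, in the order replicate 1 and replicate 2, and tests are DESeq2 Wald tests with Benjamini-Hochberg adjustment over all genes. In WT BMDMs of the Tet cohort Il6 was 0 and 0.764 at 0 h (0 and 1 counts) and 51.6 and 164 at 6 h. In WT BMDMs of the Tdg cohort it was 1.90 and 0 at 0 h (2 and 0 counts) and 211 and 371 after KLA. Il6 was thus at or under the floor in all 4 unstimulated WT libraries and far above it in all 4 stimulated ones. The ratio of summed counts was 239 in the Tet cohort (exact 95% interval 42.5 to 9496) and 228 in the Tdg cohort (62.9 to 1889), intervals that cover counting error only. The DESeq2 adjusted p was 3.21e-05 in the former and 2.61e-09 in the latter. In TET iTKO BMDMs the change was 5.85 ± 1.02 on the log2 scale (SE; DESeq2 adjusted p = 1.31e-07). In TDG iKO BMDMs Il6 went from 4.59 and 2.69 (5 counts in each library) to 197 and 388, which is 6.40 ± 0.69 on the log2 scale (SE, n = 2 per group; DESeq2 adjusted p = 5.22e-18).

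**Figure D1:**
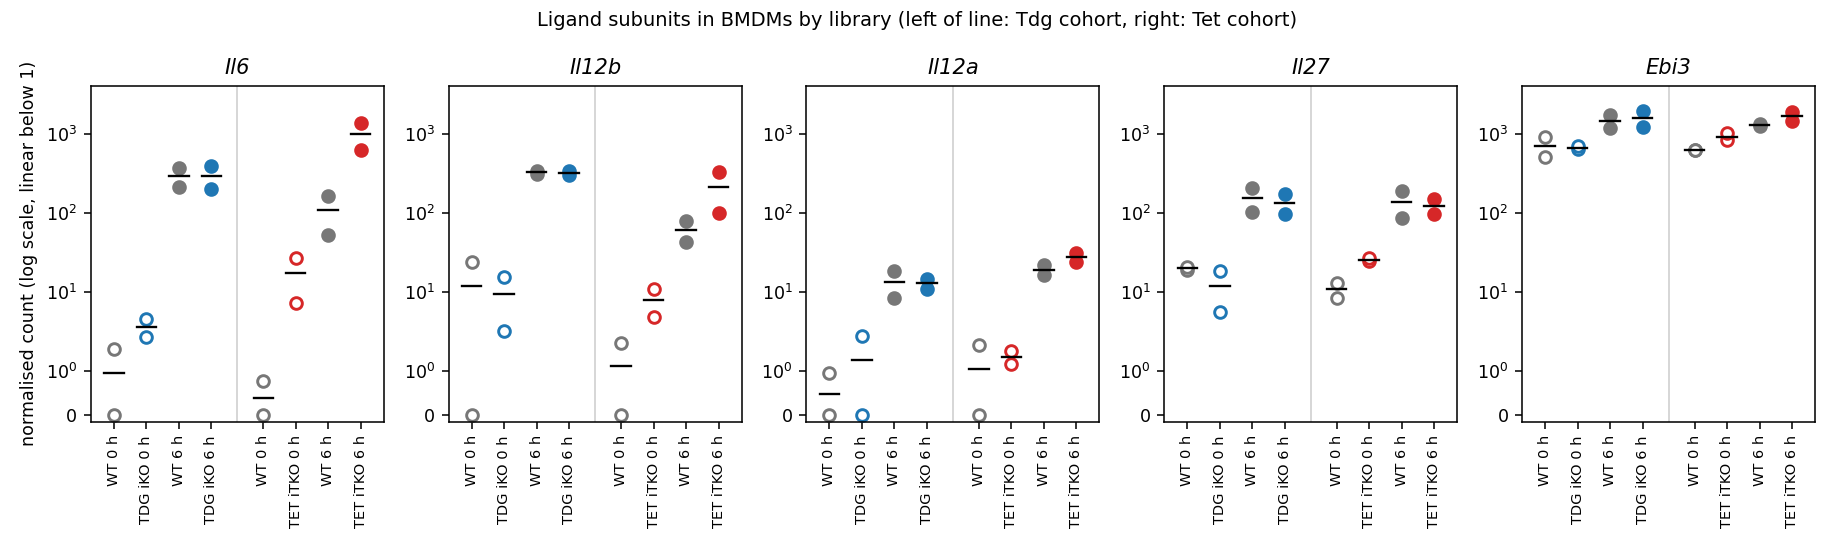
Normalised counts of 5 ligand subunits in the 16 BMDM libraries, on a log axis that is linear below 1. Each point is a library (open, 0 h; filled, 6 h KLA; grey, WT; blue, TDG iKO; red, TET iTKO), bars are group means of 2 libraries, and the line in each panel divides the Tdg cohort (left) from the Tet cohort (right). The Il6 points of TET iTKO cells at 6 h (621 and 1377) lie above the other 3 groups of the Tet cohort. Each cohort has its own scaling, and on the common scale of 16 libraries the lower of them is 498, beside 486 for the higher TDG iKO library at 6 h.

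Of the members, 3 passed the test in WT BMDMs of the Tdg cohort (Il6, Il12b and Il27), all higher, against 8.73% of all genes tested in either direction. In TDG iKO cells 4 passed, with Ebi3 as the addition, against 7.16% of all genes. In the Tet cohort 7 members passed in each genotype, against 24.3% of all genes in WT and 22.5% in TET iTKO cells. The 5 that rose were Il6, Il12a, Il12b, Il27 and Ebi3, and the 2 that fell were the receptor chains Il6ra and Il6st. An adjusted p was obtained for 8 or 9 members in these comparisons. These counts changed in the fit of all 16 BMDM libraries, which gave 5 members in WT and 7 in TDG iKO cells of the Tdg cohort and 5 in each genotype of the Tet cohort. WT 0 h replicate 2 of the Tdg cohort stood apart. It had 4982950 assigned counts, the fewest of all, 46.6% of its pairs were unassigned against 32.8% to 39.4% in the other 7 libraries of the cohort, and its macrophage markers summed to 6890 CPM against 8966 to 11331.

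Il12b, the p40 subunit of interleukins 12 and 23, was 0 and 2.29 in unstimulated WT BMDMs of the Tet cohort (0 and 3 counts) and 42.3 and 78.4 after KLA. The ratio of summed counts was 44.9 (exact 95% interval 15.0 to 221; DESeq2 adjusted p = 3.16e-07). TET iTKO cells went from 4.85 and 10.8 to 99.2 and 329, a log2 change of 4.74 ± 0.63 (DESeq2 adjusted p = 1.22e-12). The unstimulated WT libraries of the Tdg cohort were at 23.7 and 0 (25 and 0 counts), and the stimulated ones were 336 and 312. The unstimulated pair thus ran from none to 25 counts, while the stimulated pair agreed closely. The change was 4.58 ± 0.78 (SE, log2 scale; DESeq2 adjusted p = 3.3e-07), and without single libraries it ranged from 3.77 to 9.57. TDG iKO cells went from 15.6 and 3.23 to 300.1 and 341, a change of 5.16 ± 0.76 (DESeq2 adjusted p = 1.35e-09). These calls were lost without a stimulated library, at a DESeq2 adjusted p of 0.193 without WT 6 h replicate 1, 0.283 without WT 6 h replicate 2, 0.103 without TDG iKO 6 h replicate 1 and 0.213 without TDG iKO 6 h replicate 2.

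Il12a, the p35 subunit, stayed low. It rose from 2 and 0 counts to 21 and 15 counts in WT cells of the Tet cohort (ratio 21.6, exact 95% interval 5.57 to 186; DESeq2 adjusted p = 0.00475) and from 1 and 2 to 28 and 27 counts in TET iTKO cells (ratio 17.4, 5.64 to 86.7; DESeq2 adjusted p = 0.00283). Without 0 h replicate 2 the DESeq2 adjusted p was 0.133 in WT and 0.0632 in TET iTKO cells. Il12a in the Tdg cohort went from 1 and 0 to 7 and 23 counts in WT and from 3 and 0 to 9 and 19 counts in TDG iKO cells. Those changes did not pass the test (DESeq2 adjusted p = 0.152 and 0.223), with ratios of 21.2 (3.53 to 865) and 13.01 (4.02 to 66.9). Il23a, the p19 subunit, was at 0 in 13 of the 16 BMDM libraries and reached at most 4 counts, in TDG iKO 6 h replicate 1. At this depth a change in Il23a was not detectable.

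Il27, the p28 subunit of interleukin 27, was 8.46 and 12.99 at 0 h and 85.6 and 190 at 6 h in WT BMDMs of the Tet cohort, a rise of 3.66 ± 0.51 on the log2 scale (SE; DESeq2 adjusted p = 1.34e-11). In TET iTKO cells it went from 24.3 and 26.97 to 97.0 and 148 (2.26 ± 0.47; DESeq2 adjusted p = 1.33e-05). The Tdg cohort went from 18.98 and 20.7 to 101 and 203 in WT (2.95 ± 0.66; DESeq2 adjusted p = 0.000273, edgeR adjusted p = 0.052) and from 5.50 and 18.3 to 97.2 and 170 in TDG iKO cells (3.44 ± 0.65; DESeq2 adjusted p = 6.09e-06). The 6 h libraries lay above the 0 h libraries in every group, but the WT call in the Tdg cohort was lost without 6 h replicate 2 (DESeq2 adjusted p = 0.133). Apobr, whose exons overlap Il27, was far more abundant, at 3466 and 3147 in unstimulated and 4195 and 3336 in stimulated WT cells of the Tet cohort, values that overlap between the times.

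Ebi3, the partner subunit of interleukins 27 and 35, was already high without stimulation. In WT cells of the Tet cohort it went from 623 and 613 to 1231 and 1327, or 1.05 ± 0.16 on the log2 scale (SE; DESeq2 adjusted p = 3.98e-10), and in TET iTKO cells from 825 and 1006 to 1444 and 1863 (0.85 ± 0.16; DESeq2 adjusted p = 5.45e-07, and 0.0506 in the fit of all 16 libraries). The 0 h WT libraries of the Tdg cohort lay apart at 506 and 897 and the 6 h ones at 1182 and 1738 (1.06 ± 0.40; DESeq2 adjusted p = 0.0748, and 0.00899 without WT 0 h replicate 2). In TDG iKO cells Ebi3 went from 629 and 697 to 1212 and 1909 (1.24 ± 0.40; DESeq2 adjusted p = 0.0293), a call lost in edgeR's quasi-likelihood test (edgeR adjusted p = 0.147) and without 0 h replicate 1 (DESeq2 adjusted p = 0.308), 0 h replicate 2 (0.184) or 6 h replicate 2 (0.614).

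The receptor chains moved the other way. Il6ra was 945 and 935 at 0 h and 716 and 732 at 6 h in WT cells of the Tet cohort (log2 fold change -0.38 ± 0.15 SE; DESeq2 adjusted p = 0.0434), a call that was lost without any 1 of the 4 libraries (DESeq2 adjusted p from 0.154 to 0.243). In TET iTKO cells Il6ra went from 1175 and 1125 to 798 and 635 (-0.68 ± 0.15; DESeq2 adjusted p = 3.16e-05). Il6st went from 1336 and 1276 to 786 and 755 in WT (-0.76 ± 0.15; DESeq2 adjusted p = 3.76e-06) and from 1475 and 1255 to 962 and 765 in TET iTKO cells (-0.66 ± 0.15; DESeq2 adjusted p = 8.48e-05). All stimulated libraries of the Tet cohort thus lay below all unstimulated ones for both chains, and the share of all genes so separated was not computed. In the fit of all 16 libraries the DESeq2 adjusted p was 0.187 for Il6ra in WT cells and 0.179 and 0.318 for Il6st in WT and TET iTKO cells. Neither chain passed in the Tdg cohort fitted alone, and in the fit of 16 libraries both passed in TDG iKO cells (DESeq2 adjusted p = 0.00301 for Il6ra and 0.0171 for Il6st). Il6ra there went from 556 and 630.5 to 506 and 526 in WT (-0.20; DESeq2 adjusted p = 0.751) and from 568 and 753 to 422 and 412 in TDG iKO cells (-0.67 ± 0.28; DESeq2 adjusted p = 0.179). Il6st was 731 and 249 in the WT 0 h pair, a wide spread within a group, and 649 and 789 in TDG iKO cells at 0 h. After KLA it was 366 and 301 in WT and 345 and 316 in TDG iKO cells, and the change in the latter was -1.12 ± 0.47 (DESeq2 adjusted p = 0.164).

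**Figure D2:**
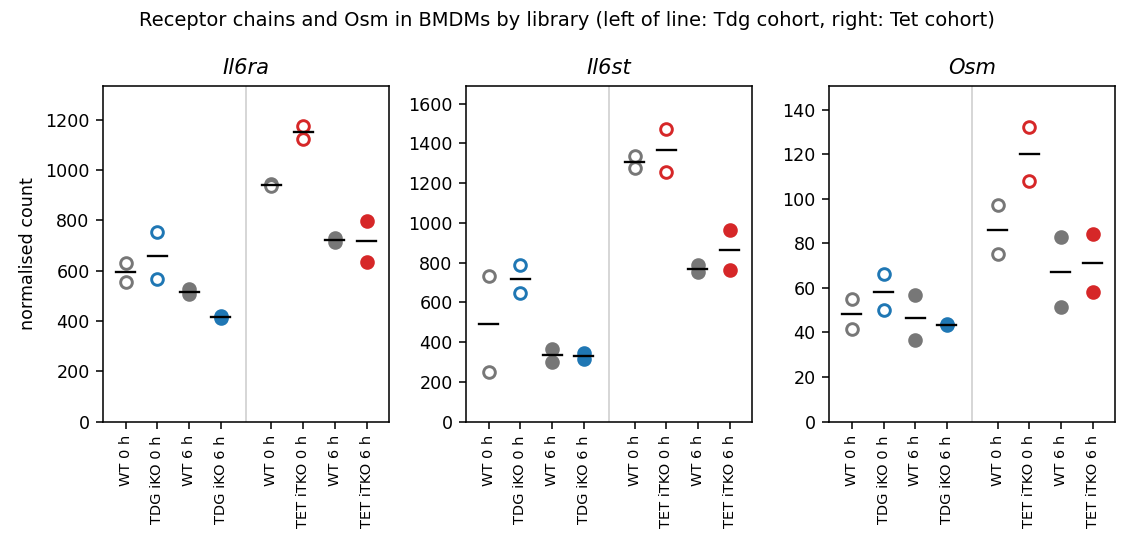
Normalised counts of Il6ra, Il6st and Osm in the 16 BMDM libraries, on linear axes that start at 0, with points, colours and bars as for the ligand subunits. In the Tet cohort (right of each line) the 6 h points of Il6ra and Il6st lie below the 0 h points, and in the Tdg cohort the 2 WT 0 h points of Il6st lie apart at 731 and 249.

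Osm, the ligand oncostatin M, did not pass the test under KLA in any group. In the Tet cohort it was 75.0 and 97.0 at 0 h and 51.6 and 82.8 at 6 h in WT cells (-0.37 ± 0.38; DESeq2 adjusted p = 0.575), and 132 and 108 at 0 h and 58.0 and 84.4 at 6 h in TET iTKO cells (-0.74 ± 0.37; DESeq2 adjusted p = 0.149). Its 8 libraries of the Tdg cohort lay between 36.4 and 66.0. Its neighbour Lif, leukemia inhibitory factor, had at most 12 counts in any BMDM library.

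Loss of the TET enzymes went with higher Il6 at both times. At 0 h Il6 had 0 and 1 counts in WT and 6 and 30 counts in TET iTKO BMDMs (normalised 7.28 and 26.97), a ratio of summed counts of 41.9 (exact 95% interval 7.06 to 1701; DESeq2 adjusted p = 0.0333, edgeR adjusted p = 0.163). At 6 h Il6 was 51.6 and 164 in WT and 621 and 1377 in TET iTKO cells. The lower TET iTKO library was still above the higher WT library, and replicates of one genotype differed by more than 2-fold. The fold change at 6 h was 9.25 (log2 3.21 ± 0.99 SE, n = 2 per group; DESeq2 adjusted p = 0.0247, edgeR adjusted p = 0.0072). Both calls were lost when single libraries were left out, in fits where the lone sample of a group was assumed to vary like the other groups. The log2 value then ran from 2.52 to 4.28 at 6 h, and the direction was kept in each fit. At 0 h the DESeq2 adjusted p was 0.255 without WT replicate 1, 0.131 without WT replicate 2 and 0.25 without TET iTKO replicate 2, and at 6 h it was 0.0758 without TET iTKO replicate 1 and 0.475 without TET iTKO replicate 2 (log2 3.67 and 2.52).

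Ebi3 and Il12b each passed at 1 time. Ebi3 at 0 h was 623 and 613 in WT and 825 and 1006 in TET iTKO cells, a fold change of 1.48 (log2 0.57 ± 0.16 SE; DESeq2 adjusted p = 0.00752, edgeR adjusted p = 0.0379). At 6 h it was 1231 and 1327 against 1444 and 1863, and the difference of 0.37 ± 0.15 did not pass (DESeq2 adjusted p = 0.157, and 0.0374 without TET iTKO replicate 1). Il12b at 6 h was 42.3 and 78.4 in WT and 99.2 and 329 in TET iTKO cells, a fold change of 3.56 (log2 1.83 ± 0.53 SE; DESeq2 adjusted p = 0.0129, edgeR adjusted p = 0.0887). At 0 h it had 0 and 3 counts in WT and 4 and 12 counts in TET iTKO cells, a ratio of 6.21 (exact 95% interval 1.78 to 33.3) that did not pass (DESeq2 adjusted p = 0.117). The groups did not overlap for either gene at either time. At 0 h they also did not overlap for Il6ra, Osm and Il27, which did not pass. The share of all genes without overlap was not computed, so no weight is placed on these separations. The Ebi3 call was lost without WT replicate 1 (DESeq2 adjusted p = 0.127), WT replicate 2 (0.15) or TET iTKO replicate 2 (0.517), and the Il12b call without WT replicate 1 (0.82) or TET iTKO replicate 2 (0.872). Without single libraries the log2 value ran from 0.42 to 0.70 for Ebi3 at 0 h and from 0.72 to 2.45 for Il12b at 6 h. Both calls were also lost in the fit of all 16 libraries (DESeq2 adjusted p = 0.711 for Ebi3 and 0.852 for Il12b).

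The members past the test were thus 2 of 9 with an adjusted p at 0 h (Il6 and Ebi3), against 7.56% of all genes tested, and 2 of 9 at 6 h (Il6 and Il12b), against 6.27%. All 4 differences were increases. The median log2 fold change of these 9 members was 0.73 at 0 h, which is the value of Il12a, a gene with at most 2 counts in those libraries, and 0.37 at 6 h, beside 0.01 and 0.00103 over all genes tested. Il27 at 0 h was 8.46 and 12.99 in WT and 24.3 and 26.97 in TET iTKO cells, which did not pass (log2 1.24 ± 0.54; DESeq2 adjusted p = 0.18). At 6 h the genotypes overlapped for Il27, at 85.6 and 190 in WT and 97.0 and 148 in TET iTKO cells. Il6ra at 0 h was 945 and 935 against 1175 and 1125 (0.29 ± 0.15; DESeq2 adjusted p = 0.279), and Osm was 75.0 and 97.0 against 132 and 108 (0.47 ± 0.37; DESeq2 adjusted p = 0.62). Il12a at 6 h was 21.7 and 16.5 against 31.2 and 23.5 (0.51 ± 0.85; DESeq2 adjusted p = 0.881). Lif had 2 and 0 counts in WT and 9 and 12 counts in TET iTKO cells at 6 h, a ratio of 9.63 (exact 95% interval 2.35 to 84.7; DESeq2 adjusted p = 0.462).

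Summed levels of most marker lists of other cell types differed with genotype in the same libraries. For 3 B cell markers, of which all had counts, the summed level was 1.25 to 1.64 CPM in the 4 WT libraries of the Tet cohort and 3.11 to 16.5 in the 4 TET iTKO libraries. For 5 dendritic cell markers, of which Cd209a was at 0 in every library of the Tet cohort, it was 0.357 to 0.424 in WT and 1.65 to 4.66 in TET iTKO cells. For the 6 neutrophil and granulocyte precursor markers in the tables (Ly6g was not listed) it was 28.5 to 53.4 against 68.8 to 148, for 4 fibroblast markers 10.4 to 20.3 against 31.3 to 61.5, and for 2 progenitor markers at most 2.70 against at least 3.57. The 3 mast cell and basophil markers were at 0.0465 to 0.121 in WT and 0 to 1.13 in TET iTKO libraries. Single markers of these lists past the DESeq2 test were all higher, against 7.56% of all genes at 0 h and 6.27% at 6 h. They were Ms4a1, Cd79a, Ccr7, S100a8, Ltf, Dcn and Cd34 at 0 h. At 6 h they were Ms4a1, Ccr7, S100a8, Ltf, Col1a1, Dcn and Cd34. Ccr7 was the only dendritic cell marker among them, and the dendritic list summed to 118 to 220 CPM in Th2 cells. Of the 2 progenitor markers, 1 had a positive log2 fold change at 0 h. The 6 macrophage markers summed to between 8222 and 8837 in all 8 libraries, but single markers differed between the genotypes. At 0 h Itgam was higher and Cd68 and Mertk were lower, against 7.56% of all genes in either direction. At 6 h Cd68, Mertk and Fcgr1 were lower, against 6.27% (all at a DESeq2 adjusted p under 0.05). Within TET iTKO cells, replicate 2 held the higher value of each of the 6 lists other than the macrophage markers, and also of Il6, Il12b and Ebi3, at both times. The T cell markers summed to 19.02 and 21.96 CPM in replicates 1 and 2 at 0 h and to 15.92 and 14.68 at 6 h. The order differed in TDG iKO cells at 6 h. There replicate 1 held the higher neutrophil (449 against 27.6 CPM), dendritic (24.03 against 2.89), B cell, mast cell and progenitor sums. Replicate 2 held the higher fibroblast sum (15.2 against 3.72). It also held the higher Il6 (486 against 244), Il12b (427 against 372) and Ebi3 (2390 against 1502) on the common scale of 16 libraries. The sums do not show which cells held these transcripts, and the part of other cell types in the Il6, Il12b and Ebi3 differences was not tested.

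**Figure D3:**
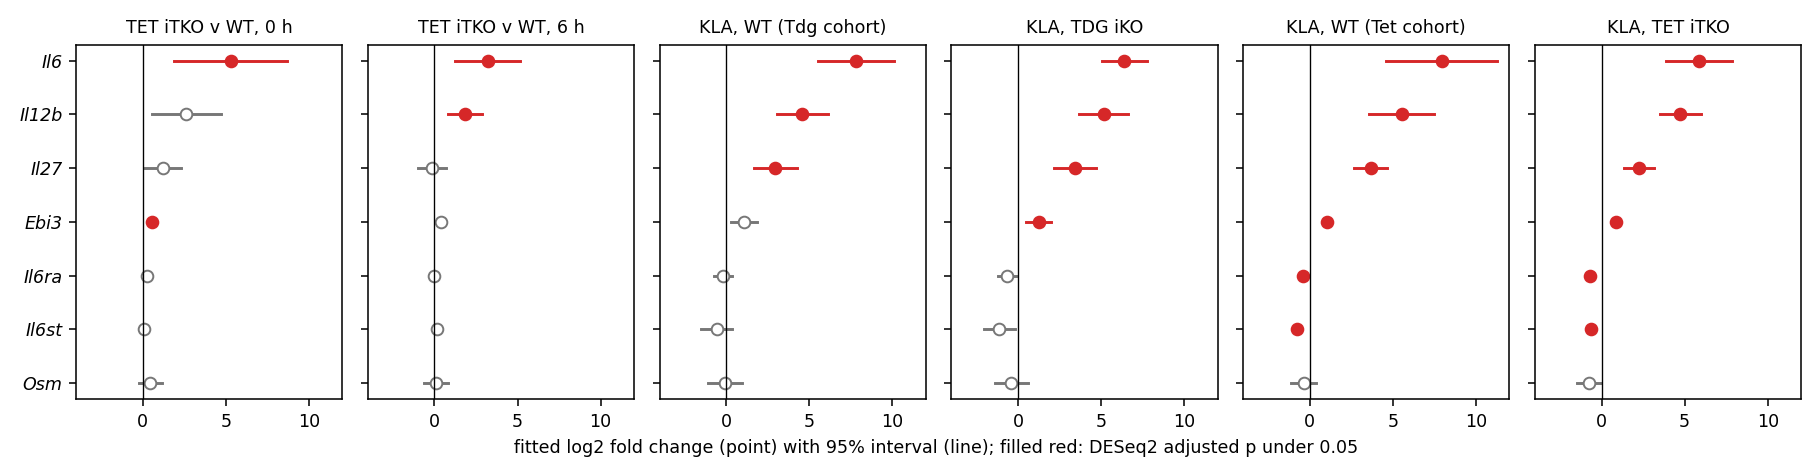
Fitted log2 fold changes (points) with 95% intervals (lines) of 7 members in the comparisons of TET iTKO with WT at 0 h and 6 h and of 6 h KLA with 0 h in each genotype, with filled red points where the DESeq2 adjusted p was under 0.05. Il6 lies to the right of 0 in all 6 panels, and its points against groups with 0 to 2 counts are no measure of size, which the ratios of counts give instead.

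For no member did the difference in KLA response between TET iTKO and WT cells pass the test (0 of 9 with an adjusted p, against 0.429% of all genes; 544 genes had an unadjusted p under 0.05). With TET iTKO minus WT, the difference in log2 response was -1.40 ± 0.69 (SE) for Il27 and -0.20 ± 0.22 for Ebi3. For Il6 no size is given, since the unstimulated WT libraries had 0 and 1 counts. The DESeq2 adjusted p was 1 for all 3, and the unadjusted p was under 0.05 for 1 member, Il27 (0.0424). edgeR called no member here, and 1 gene in all.

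TDG loss left no member past the test (0 of 10 at either time, against 0% of all genes). At an unadjusted p under 0.05, DESeq2 gave 265 genes at 0 h and 34 at 6 h, with no member among them, and edgeR called 0 genes at either time. At 6 h Il6 was 211 and 371 in WT and 197 and 388 in TDG iKO cells, a log2 difference of 0.01 ± 0.52 with a 95% interval from -1.004 to 1.02 (DESeq2 adjusted p = 1). Il12b was 336 and 312 against 300.1 and 341 (-0.02 ± 0.70, interval -1.39 to 1.36; DESeq2 adjusted p = 1). Both intervals come from the fit without the replicate number as a block. Same-numbered WT and TDG iKO libraries at 6 h deviated together (correlation 0.773), and no interval with the block is given. At 0 h Il6 had 2 and 0 counts in WT and 5 and 5 in TDG iKO cells, a ratio of 2.52 (exact 95% interval 0.538 to 23.7). Il6st at 0 h (731 and 249 against 649 and 789) passed only when WT 0 h replicate 1 was left out (DESeq2 adjusted p = 0.00123). The difference in KLA response between TDG iKO and WT cells passed for no member either (0% of all genes; 37 genes at an unadjusted p under 0.05 in DESeq2, 0 called by edgeR).

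The TET effect on Il6 at 6 h exceeded the TDG effect by 3.21 ± 0.92 on the log2 scale in the fit of all 16 BMDM libraries, which did not pass (DESeq2 adjusted p = 0.208). The corresponding differences were 1.86 ± 1.54 for Il12b at 6 h (DESeq2 adjusted p = 1) and 0.65 for Ebi3 at 0 h (0.838), and Il6 at 0 h, with 0 to 2 counts in the WT libraries, had a DESeq2 adjusted p of 0.832. No member passed in these tests, against 0.359% of all genes at 0 h and 0.0647% at 6 h. An unadjusted p under 0.05 was found for 1 member at each time, Il27 at 0 h (0.0373) and Il6 at 6 h (0.000463), beside 723 of 10866 genes at 0 h and 423 of 13921 at 6 h, and edgeR called no member. With the replicate number as a block, the Il6 difference at 6 h passed (DESeq2 adjusted p = 0.000116), as it did without WT 6 h replicate 2 of the Tet cohort (0.00906).

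The stimulated levels of the WT cells were also set side by side between the cohorts, a comparison chosen after the values were seen, in which no member passed the test. On the common scale of 16 libraries, Il6 at 6 h was 263 and 462 in WT cells of the Tdg cohort and 41.0 and 131 in those of the Tet cohort, and Il12b was 418 and 389 against 33.7 and 62.3. Stimulated TET iTKO cells on that scale had Il12b at 79.6 and 264, below those Tdg WT libraries, and Il6 at 498 and 1104, above them. The Tet WT libraries lay below the Tdg WT libraries for both genes, and the share of all genes so separated was not computed. The log2 differences, Tet minus Tdg, were -2.08 ± 0.65 for Il6 (DESeq2 adjusted p = 0.0628, and 0.00573 without Tet WT replicate 2) and -3.07 ± 1.09 for Il12b (DESeq2 adjusted p = 0.134), neither past the threshold, against 2.07% of all genes. Ebi3 was the third member with an unadjusted p under 0.05 (0.00695), beside 1315 of 12393 genes, and edgeR called no member and 28 genes in all. For no member did the KLA response of WT cells pass the test of a difference between cohorts (0 of 10, against 0.0127% of all genes; 359 genes at an unadjusted p under 0.05 in DESeq2 and 0 called by edgeR). The dendritic cell markers summed to 18.7 and 13.7 CPM in WT and 24.03 and 2.89 in TDG iKO libraries at 6 h in the Tdg cohort, and to 0.357 and 0.424 in WT libraries at 6 h in the Tet cohort. Their part in the Il12b levels was not tested, and cohort and batch cannot be told apart.

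Levels of different genes were compared per length, as CPM divided by the exon length in kilobases. In unstimulated BMDMs Ebi3 ranked first in every group, at 32.3 ± 0.548 (SD, n = 2) in WT cells of the Tet cohort, followed by Il6ra at 17.2, Il6st at 15.3, Osm at 2.31 and Il27 at 0.642. Il6 ranked sixth in TET iTKO cells at 0 h, at 1.00 ± 0.825. After KLA, Ebi3 remained first, at 61.5 ± 1.16 in WT of the Tet cohort, and Il6ra, Il6st, Il27 and Il6 followed at 12.2, 8.33, 7.52 ± 3.81 and 5.52 ± 3.94. The ranges of Il6st, Il27 and Il6 overlapped, so their order there is not resolved. In stimulated TET iTKO cells Il6 stood second at 54.2 ± 28.7, behind Ebi3 at 83.4 ± 14.5, and their ranges touched (33.9 to 74.4 for Il6 and 73.1 to 93.6 for Ebi3). In stimulated WT cells of the Tdg cohort Il6 was also second, at 23.1 ± 7.28, with Il12b at 14.5 ± 1.87, Il6ra at 13.5 and Il27 at 12.8 ± 5.22, and the ranges of Il12b, Il6ra and Il27 overlapped. Il12a was at most 1.18 in every BMDM group and was the scarcer subunit of interleukin 12 at 6 h, against 1.71 to 14.5 for Il12b.

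**Figure D4:**
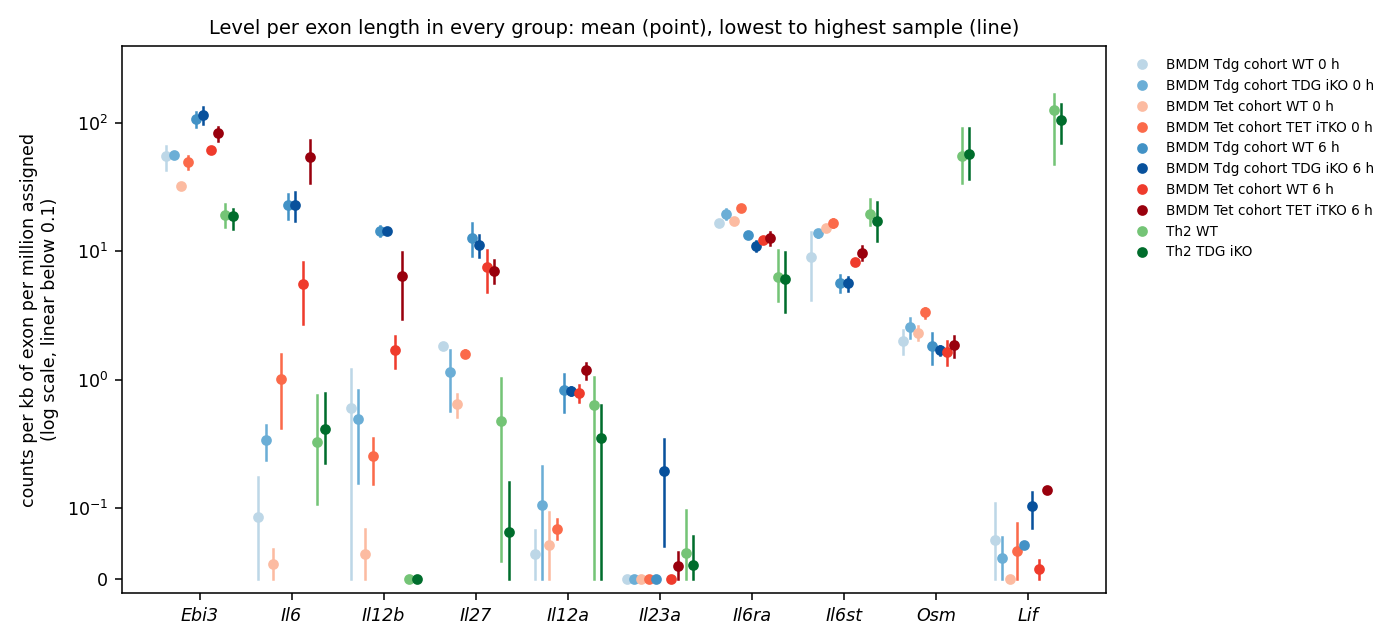
Level of the 10 genes in each of the 10 groups, as CPM divided by the exon length in kilobases, on a log axis that is linear below 0.1. Points are group means and lines run from the lowest to the highest sample (2 libraries per BMDM group, 3 samples per Th2 genotype), with Ebi3 highest in all BMDM groups and Lif and Osm highest in Th2 cells.

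The order was different in Th2 cells. On the same scale per length Lif led at 127 ± 67.9 in WT cells (SD, n = 3), with Osm at 55.0 ± 32.0, Il6st at 19.6 ± 5.35, Ebi3 at 19.3 ± 3.91 and Il6ra at 6.26. The ranges of Lif (48.2 to 169) and Osm (34.0 to 91.8) overlapped, as did those of Il6st and Ebi3. Lif lay above Osm in replicates 1 and 2 of both genotypes, and Osm above Lif in replicates 3 and 4. In the latter, Osm was 92.1 and 91.5 in WT and 91.1 and 92.9 in TDG iKO cells. Lif there was 47.9 and 48.6 in WT and 69.3 and 71.4 in TDG iKO cells. Il12b was at 0 in all 8 Th2 libraries, and Il23a and Il27 had at most 1 and 9 counts. Il6 had 3, 2 and 24 counts in TDG iKO and 1, 1 and 37 counts in WT samples, the last of each being the sum of replicates 3 and 4.

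Neither neighbour on chromosome 11 passed the test between TDG iKO and WT Th2 cells. In the order replicate 1, replicate 2 and the sum of 3 and 4, Lif was 6689, 9162 and 4089 in TDG iKO and 10226, 10144 and 2834 in WT cells (log2 -0.22 ± 0.52, 95% interval -1.23 to 0.79; DESeq2 adjusted p = 1). Osm was 1419, 1243 and 2793 in TDG iKO and 1121, 1225 and 2813 in WT cells (0.08 ± 0.47, interval -0.84 to 1.00; DESeq2 adjusted p = 1). The summed sample stood apart from the others in both genotypes, with the lowest Lif and the highest Osm. It was also highest for Il6ra, at 439 and 464 in the knockout and the wild type against 167 to 253 in the rest, and for Il6st, at 1706 and 1810 against 913 to 1225. Il12a had 7 and 7 counts in TDG iKO and 10 and 11 counts in WT in replicates 1 and 2, and 0 in the summed sample of both genotypes. No member passed (0 of the 9 with a count, against 0% of all genes), DESeq2 gave 77 genes at an unadjusted p under 0.05 and edgeR called 0. In the fit that takes the replicate number as a block, no member passed and 13 of 11274 genes did. The log2 difference was then -0.08 for Lif and 0.11 for Osm (DESeq2 adjusted p = 0.999 for both).

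Other genes of the pathway were described from lists of 6 further ligands of gp130, which had no adjusted p in these TET comparisons, 8 receptor chains, 11 genes of JAK-STAT signalling and feedback, and 17 regulators of transcription and mRNA decay. Between TET iTKO and WT BMDMs at 0 h, 1 of 5 receptor chains with an adjusted p, 3 of 11 signalling genes and 5 of 17 regulators were higher and none was lower, against 7.56% of all genes in either direction. The median log2 fold changes were 1.17, 0.21 and 0.39, beside 0.01 over all genes. Il23r, the specific chain of the interleukin 23 receptor, was 51.8 and 39.0 in WT and 220 and 216 in TET iTKO cells at 0 h (2.28 on the log2 scale; DESeq2 adjusted p = 1.23e-15) and 213 and 294 against 572 and 622 at 6 h (1.24; DESeq2 adjusted p = 2.05e-06). Socs3, the feedback inhibitor that binds gp130, was 381 and 312 in WT and 878 and 1210 in TET iTKO cells at 0 h (1.60 ± 0.17; DESeq2 adjusted p = 5.78e-18). Jak2, a kinase bound to the interleukin 12 and 23 receptors and gp130, was 1273 and 1342 against 1964 and 2011 (0.60; DESeq2 adjusted p = 0.000645, and 0.0644 and 0.064 without WT replicate 1 and TET iTKO replicate 2). The regulators that rose were Nfkbiz, Bcl3, Cebpb, Cebpd and Batf. Cebpd, a C/EBP factor, was 184 and 175 in WT and 280 and 432 in TET iTKO cells (1.00; DESeq2 adjusted p = 0.000236, and 0.268 without TET iTKO replicate 2), and Bcl3, an NF-kappa B cofactor, 273 and 309 against 455 and 449 (0.63; DESeq2 adjusted p = 0.00214, and 0.148 and 0.089 without WT replicate 1 and TET iTKO replicate 2). At 6 h Il23r and Jak2 were the listed genes past the test (Jak2 0.42; DESeq2 adjusted p = 0.0375, and 0.147 to 0.567 without WT replicate 1 or either TET iTKO library), and none of the 17 regulators was, against 6.27% of all genes. In the fit of all 16 libraries the calls of Jak2 at both times, Bcl3 at 0 h and Il23r at 6 h were lost (DESeq2 adjusted p from 0.593 to 1).

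KLA raised Socs3, Jak2 and Il23r in all 4 genotype and cohort combinations, although the Il23r calls of the Tdg cohort were lost in edgeR (edgeR adjusted p = 0.202 in WT and 0.134 in TDG iKO cells) and that of TET iTKO cells in the fit of 16 libraries (DESeq2 adjusted p = 0.113). In WT BMDMs of the Tet cohort 8 signalling genes and 10 regulators were higher, and Adam10 and Irf8 were lower, against 24.3% of all genes in either direction. In TET iTKO cells 7 signalling genes and 11 regulators were higher, and Adam10, Irf5 and Irf8 were lower, against 22.5%. For the Tdg cohort 4 and 7 were higher in WT and 3 and 6 in TDG iKO cells, with none lower, against 8.73% and 7.16%. Adam10 encodes a protease that can shed the interleukin 6 receptor, and Irf8 is a macrophage transcription factor. Adam10 changed by -0.33 in WT and -0.35 in TET iTKO cells on the log2 scale (DESeq2 adjusted p = 0.00824 and 0.00465, lost without any 1 of 3 of the 4 libraries in each and in the fit of 16 libraries), and Irf8 by -0.49 and -0.58 (DESeq2 adjusted p = 0.000433 and 2.68e-05).

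The genes whose pattern over the 8 BMDM groups was most like that of Il6, by the mean absolute difference of group means scaled to the highest group, were Slc1a2 (0.0499), Bmp1 (0.0591), Cxcl3 (0.0599), Lad1 (0.0629) and Cxcl1 (0.0634), among 10007 genes. For Il12b they were Shisa3 (0.0345), Gfi1 (0.0453), Ptx3 (0.0693), Lipg (0.0744) and Cxcl10 (0.0788). Cxcl1, Cxcl3 and Cxcl10 encode chemokines and Ptx3 a secreted pattern recognition protein. For Osm the closest was Bach1 (0.0332).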

How the data were processed

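Raw read counts per gene were deposited by the authors, who, per the submitters' processing notes and the study's methods, aligned directional polyadenylated libraries to mm9 with HISAT2 and counted with HTSeq. The annotation and strand setting are not given in the sources used here, and the counting leaves out reads that align to several places. Unassigned pairs (5 tallies, 32.8% to 51.6% of pairs) were left out. The 10 members and the pathway and marker lists were chosen with earlier results of these data known, and the genes named are the members plus genes of those lists.

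Counts were tested with the Wald test of DESeq2 1.42.0 (R 4.3.3), as the study's methods name DESeq2, with an adjusted p threshold of 0.05, default independent filtering, and unshrunken log2 fold changes. Each BMDM cohort of 8 libraries was fitted together, comparisons between cohorts used all 16 libraries, and Th2 cells had their own fit. Alternatives were edgeR 4.0.16 (quasi-likelihood, TMM), other scaling, a filter of 10 counts in 2 libraries, replicate blocks and leaving out each replicate. DESeq2 and edgeR were run on simulated counts for TDG iKO and TET iTKO against WT at 6 h, their difference and the Th2 comparison. The other comparisons and the remaining alternatives were not simulated. Exonic lengths came from GENCODE (NCBIM37).

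Th2 replicates 3 and 4 were summed, since their mean chi-square per gene was 1.34 (TDG iKO) and 1.51 (WT), and that of other pairs of a genotype ran from 21.3 to 218. Same-numbered Th2 samples deviated together (correlations of 0.495, 0.688 and 0.908). The summed sample stood apart in both genotypes, and correlations between different numbers were not computed, so pairing by number was not shown.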

Additional observations from a re-analysis of the deposited data

Results flagged for a closer look

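Socs3, the feedback inhibitor of gp130 signalling, was the 1 result marked for a closer look, because its KLA response differed between the genotypes of the Tet cohort by an interaction term. Socs3 went from 381 and 312 to 5796 and 6292 normalised counts in WT BMDMs and from 878 and 1210 to 5476 and 7307 in TET iTKO BMDMs. The response in TET iTKO minus that in WT cells was -1.52 ± 0.24 on the log2 scale (SE, n = 2 per group; DESeq2 adjusted p = 2.29e-07), with the groups apart at 0 h and overlapping at 6 h. It kept its sign and its call without each of the 8 libraries, from -1.75 to -1.27, but not its call in edgeR (edgeR adjusted p = 0.114).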

How the results depend on the processing

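Of 828 alternative values of the log2 fold changes behind the tests given here, 729 kept their direction and side of the threshold, 67 lost the call, 18 gained it and 14 changed sign, and for 15 more no adjusted p was obtained. The counts of members past the test stayed within 1.5 times in 145 of 167 alternatives. For TET iTKO against WT the count of 2 at 0 h became 1 in edgeR (Ebi3) and 1 in the fit of all 16 BMDM libraries (Il6), and the count of 2 at 6 h became 1 (Il6) in both. In that fit of 16 libraries the KLA comparisons of the Tdg cohort gave 5 members in WT and 7 in TDG iKO cells. Leaving out single libraries gave 0 to 2 members for TET iTKO against WT at 0 h and 0 to 2 at 6 h. It gave 1 to 5 for KLA in WT and 2 to 3 in TDG iKO cells of the Tdg cohort. It gave 0 to 1 for TDG iKO against WT at 0 h, for the difference in KLA response with TDG, for TET minus TDG effects at 0 h and at 6 h, for the WT KLA response between cohorts and for the WT cohorts at 6 h. The cause of these changes was not tested.

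The replicate number was also fitted as a block, although only a number pairs the BMDM libraries. How closely same-numbered libraries deviated together depended on the comparison. The correlation of deviations was highest for KLA in TDG iKO cells (0.794) and for TDG iKO against stimulated WT cells (0.773). TET iTKO against WT gave the lowest values, 0.0203 for unstimulated and 0.05 for stimulated cells. The remaining BMDM comparisons lay between 0.343 and 0.399. With the replicate block, 1 member passed for TET minus TDG effects at 6 h (Il6) and 3 for the WT cohorts at 6 h (Il6, Il12b and Ebi3). TDG iKO against WT at 6 h became -0.007 for Il6 and 0.048 for Il12b with the block, and the range without single libraries was -0.563 to 0.473 for Il6 and -0.108 to 0.075 for Il12b. For Il6st at 0 h it was -0.013 to 1.529. In Th2 cells Lif was 0.079 with replicates 3 and 4 as separate libraries and the replicate block, and the range was -0.522 to 0.033 without a TDG iKO sample and -0.619 to 0.037 without a WT sample. For Osm these ranges were -0.374 to 0.292 and -0.15 to 0.632. Of these values, the 1.529 of Il6st, without WT 0 h replicate 1, passed the test. The block changed no other count of members by more than 1.5 times.

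With 2 libraries per group and few or no counts in most unstimulated WT libraries, the depth bounds the ratios of Il6, Il12a, Il12b and Lif against them only loosely.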
